A study of Mus musculus with 6 samples.

Results

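The miR-130/301 family was followed from mouse embryonic stem cells (ESCs) into retinoic acid (RA)-treated neuronal cells (NCs). Its members were the rows named mir-130a, mir-130b, mir-301a and mir-301b, chosen by name, 4 of 898 microRNA (miRNA) genes in the deposited table. All 4 had reads in every library, and 634 of the 898 genes were detected in ESCs, NCs or both. Small RNA was sequenced from E14Tg2a cells, a mouse ESC line, at passages 37 to 40. The 3 ESC libraries came from cells kept with leukemia inhibitory factor (LIF), and the 3 NC libraries from monolayers without LIF that received 1 µM RA for 48 hours. Both groups were the same line, and the labels named no genetic change, sorting step or batch. The labels number the libraries of each group as replicates 1 to 3. The paper describes separate processing of 3 replicate sets for RNA-seq and does not repeat it for small RNA. The p-values below concern the spread between such replicates of 1 line, and the linear model used below draws part of that spread from other miRNAs.

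A miRNA is cut from a hairpin transcript into a strand of about the length of those shown here, which pairs with messenger RNAs mainly through its seed and lowers their output. miRNAs with the same seed are predicted to share many targets and are grouped as a family. The miR-130/301 family has been linked to reprogramming of fibroblasts to pluripotency, and its seed shares letters with those of the miR-290 and miR-302 clusters, which are abundant in pluripotent cells.

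The 3p strands are shown because their seed defines the family. Sequences are from RefSeq on build GRCm38.p6, 5′ to 3′, with the seed, bases 2 to 8, in capitals.
mmu-miR-130a-3p: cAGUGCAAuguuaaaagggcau
mmu-miR-130b-3p: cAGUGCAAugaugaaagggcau
mmu-miR-301a-3p: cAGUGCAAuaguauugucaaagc
The 3p entry of mir-301b was not analysed here. Its hairpin is printed in its place, and holds the family seed, in capitals, 1 time.
mir-301b hairpin: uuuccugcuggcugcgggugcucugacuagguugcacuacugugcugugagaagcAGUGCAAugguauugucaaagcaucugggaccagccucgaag

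Past the seed the 4 members fell into 2 pairs. Positions are counted from 1 at the base before the seed, over 22 bases. mir-130a and mir-130b were identical at 20 of them and differed by U11A and A13G. mir-301a and mir-301b were identical at 21 and differed by A10G. Pairs across this divide were identical at 11 to 13 bases.

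The strands from the other arm of the hairpin show which members also share a second seed, again in capitals.
mmu-miR-130a-5p: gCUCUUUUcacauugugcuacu
mmu-miR-130b-5p: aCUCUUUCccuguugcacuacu
mmu-miR-301a-5p: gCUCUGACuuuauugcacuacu
mmu-miR-301b-5p: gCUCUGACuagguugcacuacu
mir-301a and mir-301b had the same 5p seed, and mir-130a and mir-130b each had another. The table gave 1 value for each hairpin, so reads of the arms could not be told apart. The rules for reads that match more than 1 miRNA are not given in the sources used here. With 1 base between mir-301a and mir-301b, and 2 between mir-130a and mir-130b, the split of reads within each pair is uncertain.

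The pairs by sequence were not the pairs by position. mir-130b (chr16:17124061-17124142) and mir-301b (chr16:17124400-17124496) lie on the minus strand with 257 bases between them, in an intron of 2610318N02Rik on the same strand. mir-301a (chr11:87113004-87113089) lies on the plus strand in an intron of Ska2, which encodes a protein of the spindle and kinetochore, also on the same strand. mir-130a (chr2:84741115-84741178) lies on the minus strand between genes, 991 bases from Gm19426 and 2460 bases from Ypel4. The RefSeq table held 4 further miRNAs with this seed, miR-6341, miR-721, miR-6389 and miR-130c, and none of them was matched to a row of the deposited table.

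The deposited values were group means of normalized read counts, that is, reads scaled by the size factor of their library. Whole reads of the single libraries were recovered from the decimals of these means. In each group the libraries are called A, B and C in order of size factor, A being the deepest, and none could be assigned to a labelled replicate. The ESC libraries had size factors of 1.62, 0.937 and 0.547, and the NC libraries of 2.31, 0.977 and 0.585. Reads were recovered for 526 of 549 detected miRNAs in ESCs and 580 of 602 in NCs. These held 11.4% and 9.41% of the summed signal, since the most abundant miRNAs were not resolved. All 4 members were resolved. The shallowest library, C, stood apart from A and B in a like way in both groups. For each of 255 miRNAs whose mean was 20 or more, the log2 deviation of C from A and B was computed in both groups, and the values of the groups had a Pearson's r of 0.814 and a Spearman's rho of 0.851. These points are miRNAs of the same libraries and not independent. Results are therefore given with and without the C libraries. As a check of the labels, all 12 pluripotency miRNAs of a fixed list were lower in NCs, with a summed mean of 137809 in ESCs and 31426 in NCs. These were genes of the miR-290 and miR-302 clusters, so they are not 12 independent miRNAs. Among them mir-367 and mir-302b were low, with ESC means of 0.616 and 6.84. All 6 neuronal ones were higher, 1272 against 2319, though the defining neuronal mir-124 genes had means of 6.02 or less. These 6 were 3 copies each of mir-9 and mir-124. The mir-9 copies had nearly the same reads (810, 796 and 801 in ESC library A), so they do not count as separate miRNAs. Of the 3 neuronal genes tested in the linear model below, none passed on all libraries. All 3 passed, higher in NCs, in the fit that sets the C libraries apart. Of other cell types, the 4 muscle genes were listed at 0, and mir-122 and mir-375 of endoderm were at 0.411 or less. The endothelial marker of the list, mir-126, matched no row by that name. The row mir-126a had 4642, 3478 and 611 reads in ESC libraries A, B and C. In the NC libraries it had 9714, 4052 and 526, and its part in the results was not tested. The 3 blood genes summed to 6040 in ESCs and 1135 in NCs, most of it mir-150, and their part in the results was not tested. In bulk samples such as these, fewer cells of a type and less RNA per cell cannot be told apart.

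mir-301a had the largest change of the 4 members. It had 27.1, 23.5 and 11.0 normalized counts in ESC libraries A, B and C, from 44, 22 and 6 reads. In the NC libraries it had 76.7, 111.6 and 46.2, from 177, 109 and 27 reads. Every NC library lay above every ESC library, and C was the lowest of its group in both. The group mean was 20.5 ± 8.48 (SD, n = 3) in ESCs and 78.2 ± 32.7 (SD, n = 3) in NCs, a fold change (FC) of 3.81.

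mir-301a rose in NCs in limma-voom, a linear model fitted across all miRNAs, by 1.81 ± 0.47 (SE) on the log2 scale (adjusted p = 0.0427 by limma with Benjamini-Hochberg adjustment). The 95% interval of the fitted FC was 1.62 to 7.56. It was the 1 member of 4 that passed, where 10.2% of the 314 miRNAs tested were called higher and 5.73% lower. The FC was 3.72 in the 2 deeper libraries of each group and 4.21 in the shallowest. The latter rests on 6 reads in ESCs and 27 in NCs, so whether the size was alike in both cannot be told. The call depended on the libraries: it was lost without ESC library A, B or C and without NC library A or B, with adjusted p from 0.0567 to 0.139 by limma, and held without NC library C (adjusted p = 0.0191 by limma). The log2 change in these 6 fits stayed between 1.55 and 2.09.

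mir-301b was the least abundant member. Its ESC libraries A, B and C had 10.5, 6.40 and 14.6 normalized counts, from 17, 6 and 8 reads. Its NC libraries had 21.7, 28.7 and 23.9, from 50, 28 and 14 reads. The groups did not overlap, but the reads were few. The exact 95% Poisson interval of ESC library C (6.31 to 28.8) overlapped those of all 3 NC libraries. That of ESC library A (6.10 to 16.8) overlapped those of NC libraries A (16.1 to 28.6) and C (13.1 to 40.2). That of ESC library B (2.35 to 13.9) overlapped that of NC library C. These intervals cover counting error only. The mean was 10.5 ± 4.11 (SD, n = 3) in ESCs and 24.8 ± 3.57 (SD, n = 3) in NCs, an FC of 2.36. The limma-voom change was 1.26 ± 0.40 (SE) on the log2 scale and did not pass (adjusted p = 0.0806 by limma).

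mir-130a had 26.5, 37.3 and 20.1 normalized counts in ESC libraries A, B and C, from 43, 35 and 11 reads. It had 58.1, 80.9 and 18.8 in the NC libraries, from 134, 79 and 11 reads. NC libraries A and B lay above all ESC libraries, and NC library C lay below all of them. The mean was 28.0 ± 8.71 (SD, n = 3) in ESCs and 52.6 ± 31.4 (SD, n = 3) in NCs, an FC of 1.88. The fitted change was 0.84 ± 0.54 (SE) on the log2 scale and did not pass (adjusted p = 0.399 by limma). The FC was 2.18 in the deeper libraries and 0.936 in the shallowest, each of which had 11 reads.

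mir-130b was the abundant member. Its ESC libraries A, B and C had 615, 481 and 3062 normalized counts, from 997, 451 and 1676 reads. Its NC libraries had 617, 735 and 1715, from 1424, 718 and 1003 reads. The groups overlapped, and C was the highest library in both. C alone gave 73.6% of the ESC mean and 55.9% of the NC mean. The means were 1386 ± 1453 (SD, n = 3) in ESCs and 1022 ± 603 (SD, n = 3) in NCs, an FC of 0.738. The direction turned with the libraries used: the FC was 1.23 in the deeper ones, where means were 548 and 676, and 0.560 in the shallowest. The fitted change was -0.09 ± 0.77 (SE) on the log2 scale (adjusted p = 0.957 by limma), with a 95% interval of the FC from 0.266 to 3.30. Such an interval leaves both a decrease and an increase possible.

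**Figure D1:**
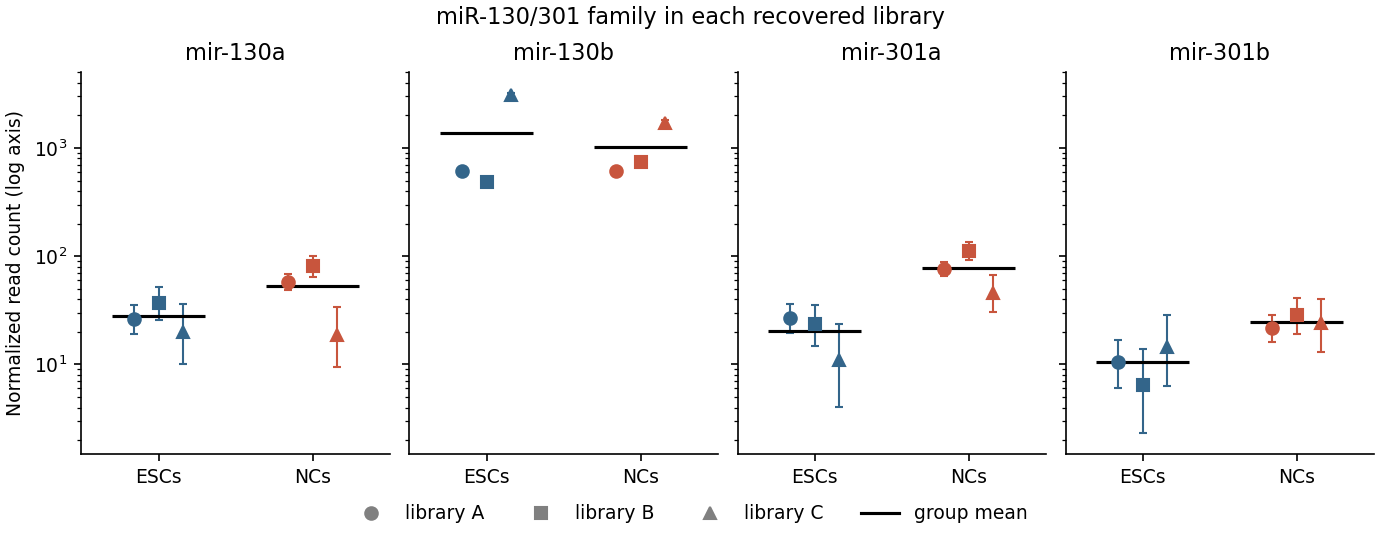
Normalized read counts (log axis) of the 4 members in the 3 ESC and 3 NC libraries, with exact 95% Poisson intervals for counting error and a line at the group mean. The NC points of mir-301a, from 46.2 to 111.6, all lie above its ESC points, from 11.0 to 27.1, and the C libraries of mir-130b, at 3062 and 1715, lie above its other 4.

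Over all 6 libraries the groups did not overlap in 2 of the 4 members, mir-301a and mir-301b, both higher in NCs. Of the 306 miRNAs that were resolved and had a mean of 10 or more, 17.3% were higher and 14.4% lower without overlap. In the deeper libraries alone, an alternative chosen after seeing the data, all 4 members were higher in NCs without overlap. There the background was 37.9% higher and 41.2% lower, since 2 libraries against 2 are apart more often.

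The C libraries were then taken into the model as a set of their own, with a term for the difference between C and the deeper libraries. In this fit 3 members passed, and all 3 were higher in NCs, against 23.6% of the 314 miRNAs called higher and 21.7% called lower. mir-301a rose by 1.83 ± 0.25 (SE) on the log2 scale (adjusted p = 0.000144 by limma). mir-301b rose by 1.23 ± 0.34 (adjusted p = 0.0124 by limma) and mir-130a by 0.97 ± 0.26 (adjusted p = 0.0115 by limma). The C libraries alone showed no rise of mir-130a, with an FC of 0.936 from 11 reads in each, against 2.18 in the deeper ones. By limma-trend, another way of modelling the spread, mir-130a did not pass with the same term (log2 0.71, adjusted p = 0.104 by limma). mir-130b did not pass, with a log2 change of -0.11 ± 0.22 (adjusted p = 0.721 by limma) and a 95% interval of the FC from 0.661 to 1.30. The interval of mir-130b was thus narrower here than in the fit without the term. The term takes the difference between C and the deeper libraries to be the same in ESCs and NCs. For mir-130b the FC was 1.23 in the deeper libraries and 0.560 in the shallowest, the latter outside this interval. The fitted value thus lies between opposite directions and does not show that mir-130b was unchanged.

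In the 2 deeper libraries of each group the same 3 members passed, with 28.3% of 322 miRNAs called higher and 21.4% called lower. The log2 changes were 1.77 ± 0.27 (SE) for mir-301a (adjusted p = 9.84e-05 by limma), 1.41 ± 0.37 for mir-301b (adjusted p = 0.00693 by limma) and 1.10 ± 0.25 for mir-130a (adjusted p = 0.00260 by limma). mir-130b had 0.29 ± 0.15 (adjusted p = 0.138 by limma). Over all 20 alternative fits, or 19 for mir-301a and mir-301b, adjusted p ranged from 1.94e-08 to 0.139 for mir-301a, from 0.00548 to 0.261 for mir-301b, from 0.00190 to 0.728 for mir-130a and from 0.138 to 0.976 for mir-130b by limma. The 1.94e-08 came from the fit with the library set as a term and without NC library A. There the spread was taken from all miRNAs together (632 degrees of freedom), and the next lowest value of mir-301a was 5.61e-05 by limma. The calls of mir-301b and mir-130a with the library set as a term were both lost without ESC library A (adjusted p = 0.0643 and 0.173 by limma, an alternative chosen after seeing the data), while mir-301a passed in all 6 such fits.

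**Figure D2:**
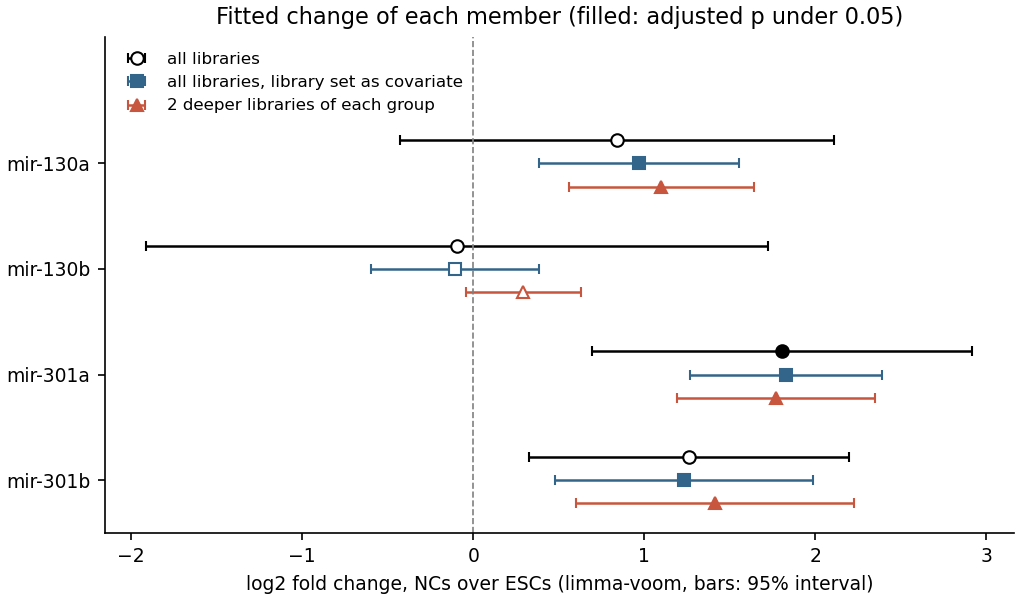
Fitted log2 FC (x axis, NCs over ESCs) of each member with its 95% interval, in limma-voom on all libraries, with the library set as covariate, and in the 2 deeper libraries of each group. Filled symbols passed an adjusted p of 0.05: mir-301a in all 3 fits, mir-130a and mir-301b in the latter 2, and mir-130b, whose intervals hold 0, in none.

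The place of the C libraries among other miRNAs differed between members. For mir-130b the log2 deviation of C from A and B was 2.49 in ESCs, above 250 of the 255 miRNAs, and 1.35 in NCs, above 237. mir-301a deviated the other way, by -1.20 in ESCs and -1.0 in NCs. mir-130a had -0.65 and -1.87, and mir-301b, which lay under the mean of 20, had 0.84 and -0.06. The SD of this deviation over the 255 miRNAs was 1.29 in ESCs and 1.16 in NCs, and no member lay beyond 2 SD in either group. The values of mir-130b and mir-301b, which lie 257 bases apart, thus differed in size. Those of mir-301b rest on 8 reads in ESC library C and 14 in NC library C. Whether the 2 deviated differently beyond counting error was not tested.

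**Figure D3:**
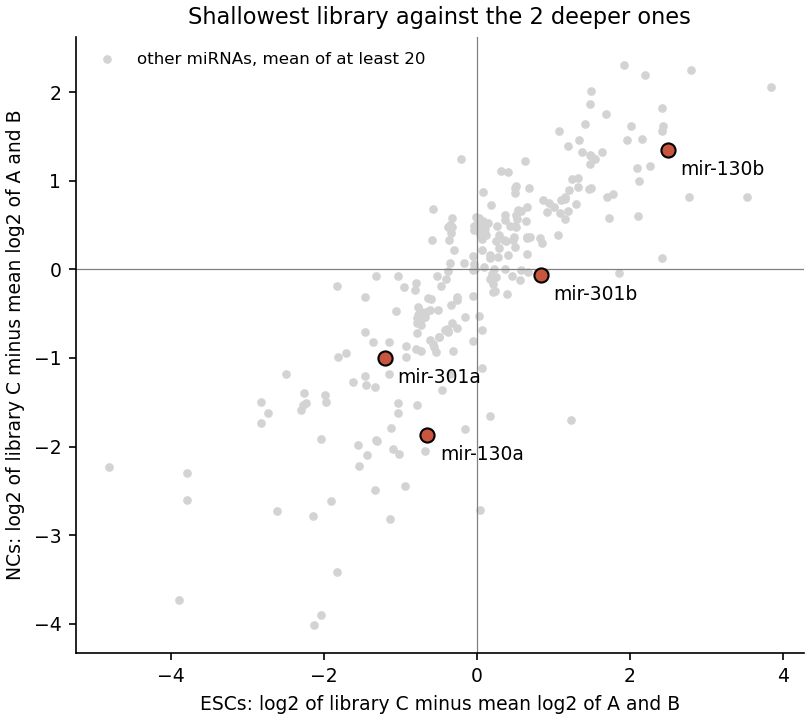
Log2 deviation of library C from the mean of libraries A and B in ESCs (x axis) and NCs (y axis), for miRNAs whose mean was 20 or more (gray) and the 4 members (red). mir-130b lies at 2.49 and 1.35, and mir-301a at -1.20 and -1.0.

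Summed over the members, the family was dominated by mir-130b. The summed group mean was 1445 in ESCs and 1178 in NCs, an FC of 0.815. By library the sum was 679, 548 and 3108 in ESC libraries A, B and C and 774, 956 and 1804 in the NC libraries. Both deeper NC libraries thus lay above both deeper ESC libraries, and the shallowest ones had the opposite order. By mean, mir-130b ranked 49th of 549 detected miRNAs in ESCs and 61st of 602 in NCs. mir-130a ranked 253rd and 211th, mir-301a 273rd and 185th, and mir-301b 318th and 264th. By reads in the same library, mir-301a was above mir-130a in all 3 NC libraries, with 177, 109 and 27 against 134, 79 and 11 reads. In ESCs it was about level in library A, with 44 against 43 reads, and below in B and C, with 22 against 35 and 6 against 11.

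Shares of family reads within a library do not depend on the scaling between libraries. mir-130b held 90.6%, 87.7% and 98.5% of the reads of the 4 members in ESC libraries A, B and C, and 79.8%, 76.9% and 95.1% in the NC libraries. In each set of libraries the NC share was the lower one, but NC library C lay above ESC libraries A and B. The mean was 92.3% ± 5.60 (SD, n = 3) in ESCs and 83.9% ± 9.78 (SD, n = 3) in NCs (two-sided exact permutation test, p = 0.3, adjusted over 4 members 0.4). mir-301a held 4.0%, 4.28% and 0.353% in ESCs and 9.92%, 11.7% and 2.56% in NCs, with means of 2.88% ± 2.19 and 8.05% ± 4.83 (SD, n = 3, exact permutation p = 0.3, adjusted 0.4). The shares of mir-130a were 3.79% ± 3.08 and 5.67% ± 4.03 (SD, n = 3, exact permutation p = 0.5, adjusted 0.5). Those of mir-301b were 1.06% ± 0.545 and 2.38% ± 0.913 (SD, n = 3, exact permutation p = 0.2, adjusted 0.4). No share passed, and 3 libraries against 3 cannot give a p below 0.1. For mir-301a the exact 95% binomial intervals, which cover counting error only, were 2.92% to 5.33%, 2.70% to 6.41% and 0.130% to 0.766% in ESC libraries A, B and C and 8.57% to 11.4%, 9.68% to 13.9% and 1.69% to 3.70% in the NC libraries. That of NC library C overlapped those of ESC libraries A and B.

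**Figure D4:**
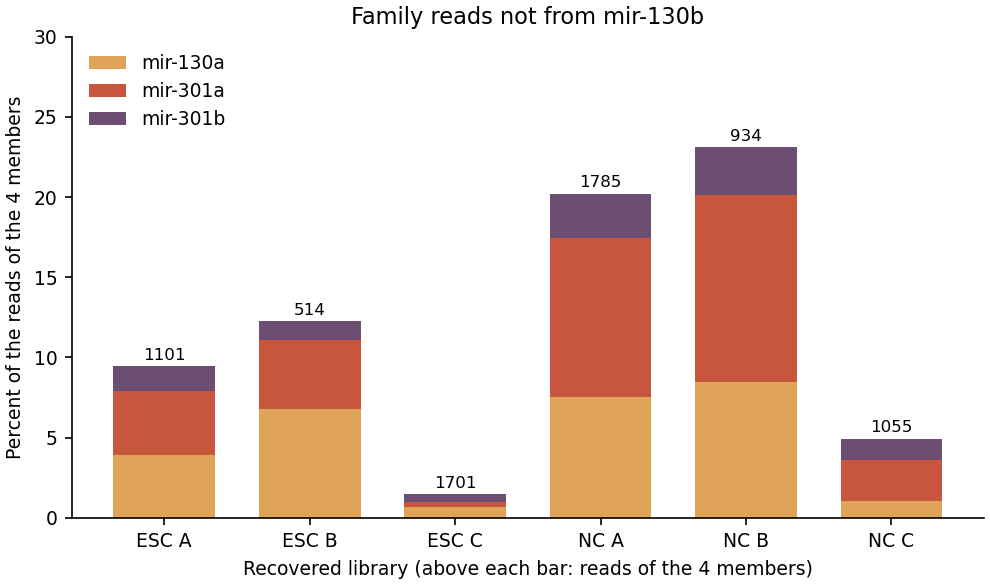
Percent of the reads of the 4 members (y axis, from 0) that came from mir-130a, mir-301a and mir-301b in each recovered library, with the reads of all 4 members above each bar. The rest came from mir-130b, which held 76.9% to 95.1% in NCs and 87.7% to 98.5% in ESCs.

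Ratios of reads between members tested whether they changed by different amounts. The ratio of mir-130a to mir-301a was 0.977, 1.59 and 1.83 in ESC libraries A, B and C and 0.757, 0.725 and 0.407 in the NC libraries. It was the only one of 6 pairs in which the groups did not overlap. Its log2 ratio was lower in NCs by -1.22 (0.50 ± 0.48 in ESCs and -0.72 ± 0.50 in NCs, SD, n = 3, exact permutation p = 0.1, adjusted over 6 pairs 0.6), and 0.1 is the smallest p this design allows. mir-130b to mir-301b, the neighbours on chromosome 16, had ratios of 58.6, 75.2 and 209.5 in ESCs and 28.5, 25.6 and 71.6 in NCs. Its log2 ratio differed by -1.38 (exact permutation p = 0.2, n = 3, adjusted 0.6), by -1.30 within the deeper libraries and by -1.55 between the shallowest. In each set the NC value was thus lower, although NC library C lay above ESC library A. mir-130b to mir-301a had ratios of 22.7, 20.5 and 279.3 in ESCs and 8.05, 6.59 and 37.1 in NCs, a log2 difference of -2.01 (exact permutation p = 0.3, n = 3, adjusted 0.6). It differed by -1.57 within the deeper libraries and by -2.91 between the shallowest. The other 3 pairs differed by -0.59 to 0.79 on the log2 scale, with an adjusted p of 0.6 in each by the exact permutation test. These tests took no account of the library sets, and a test of the ratios within sets was not run. In the fit with the library set as covariate, the 95% intervals of the FC were 2.40 to 5.24 for mir-301a and 0.661 to 1.30 for mir-130b and did not overlap. Without that covariate they were 1.62 to 7.56 and 0.266 to 3.30 and did overlap. Such intervals of single members are not a test of their ratio. The covariate also takes the difference of C to be the same in both groups. For mir-130b the FC was 1.23 in the deeper libraries and 0.560 in the shallowest.

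miRNAs with profiles nearest to each member were found over the 6 libraries among the same 306 miRNAs. The measure was the root mean square difference of centred log2 values. For mir-301a they were mir-199b (0.351), mir-455 (0.374) and mir-322 (0.375). For mir-301b they were mir-188 (0.210), mir-199a-2 (0.253) and mir-412 (0.279). For mir-130a they were mir-871 (0.134), mir-872 (0.273) and mir-148b (0.348), and for mir-130b mir-484 (0.219), mir-1934 (0.227) and mir-212 (0.299). Between members the same difference was 0.701 to 1.74. The 3 nearest were picked out of all these miRNAs, members left out, and the relatives were fixed, so these differences are not compared. The members closest to each other were mir-130a and mir-301a (0.701), and the farthest were mir-130b and mir-301a (1.74).

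Other miRNAs with a like seed were counted beside the members. mir-148a, mir-148b and mir-152 have the seed CAGUGCA, which overlaps that of the family with an offset of 1 base. None of these 3 passed in limma-voom (adjusted p = 0.897, 0.535 and 0.230 by limma, log2 changes -0.14, 0.46 and 0.68). With the library set as covariate mir-148b and mir-152 passed, both higher in NCs (log2 0.50 and 0.72, adjusted p = 0.0137 and 0.00250 by limma). A wider list took miRNAs whose mature sequence in the RefSeq table held the 5 letters AGUGC within the seed. A mature sequence was found for 756 of the 898 names, so the list may be incomplete. mir-302a of the pluripotency list was not on it, and was called lower in limma-voom on all libraries (log2 -4.23, adjusted p = 0.000399 by limma). Without the members, 15 miRNAs of the wider list were tested. In limma-voom on all libraries 6 of them were called, all lower in NCs, and 9 did not pass, with a median log2 change of 0.02, beside the 5.73% of all miRNAs tested that were called lower. With the library set as covariate 4 were called higher and 6 lower, beside 23.6% and 21.7% of all tested, and in the deeper libraries 4 were called higher and 7 lower of 16 tested, beside 28.3% and 21.4%. The 6 called on all libraries were genes of the miR-290 and miR-302 clusters, which the check of the labels above also used. Of the 19 such genes detected, 9 had a higher and 10 a lower group mean in NCs, a median log2 FC of -0.05 beside 0.07 for all 634 detected miRNAs. For the 4 members the median log2 FC of the group means was 1.03, with 3 higher and 1 lower.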

How the data were processed

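The members and lists were chosen with earlier results of these data known. The authors deposited group means of read counts normalized by size factors (signal, 10 decimals) and their own fold changes and p-values, which were not used. The submitters' processing notes name DESeq and build mm10; the aligner and counting rules are not given in the sources used here. The mean of 3 libraries fixes their whole reads where 1 set of whole numbers fits its decimals, and those reads were used (resolved reads 78414 to 327134 per library). limma 3.58.1 (R 4.3.3) was run on miRNAs that had 10 reads or more in 3 libraries (in 2 where a library was left out), with Benjamini-Hochberg adjustment over all tested and a threshold of 0.05. The recovery and the fits were run on simulated data that held no difference between C and the deeper libraries, so the simulation does not cover that feature. log2 FCs of group means used a pseudocount of 1, which understates the change of low miRNAs. Count tests were not run, and the recovered reads were fitted with limma alone. Genes named were the members, those sharing or overlapping their seed, and the 3 nearest profiles of each. Marker genes of cell types were named for the check of the labels, and mir-10a for a scaling. Positions and genes were from RefSeq GRCm38.p6 and GENCODE M21; 890 of 898 names matched a RefSeq symbol. Permutation tests used scipy 1.17.1 under Python 3.11.15.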

Additional observations from a re-analysis of the deposited data

How the results depend on the processing

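Depth limited mir-130a, mir-301a and mir-301b most, with 6 to 11 reads in their lowest library. limma-voom called 50 miRNAs on all libraries. It called 142 with the library set as covariate, 160 in the 2 deeper libraries of each group, 128 by limma-trend with that covariate, and 30 with at least 10 reads in every library, a filter that removed mir-301a and mir-301b. Leaving out 1 library gave 21 to 53 calls, or 111 to 164 with the covariate, an alternative chosen after seeing the data. The cause of these moves was not tested.

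mir-301a kept its direction in 19 alternative fits and passed in 13; with at least 1 read in any library its log2 change was 1.83 (adjusted p = 0.0573 by limma), and without 1 library it was 1.55 to 2.09. mir-301b (log2 1.26) passed with the covariate (1.23), in the deeper libraries (1.41) and by limma-trend with the covariate (1.26), and was 1.03 to 1.44 without 1 library, or 1.02 to 1.41 with the covariate. mir-130a (0.84) passed with the covariate (0.97) and in the deeper libraries (1.10) but not by limma-trend with the covariate (0.71, adjusted p = 0.104 by limma), and was 0.57 to 1.28 without 1 library, passing without NC library C, or 0.65 to 1.12 with the covariate. mir-130b (-0.09) turned to 0.29 in the deeper libraries and 0.20 with upper quartile size factors, and was -0.58 to 0.84 without 1 library, highest without ESC library C, or -0.30 to 0.29 with the covariate; it passed in none of 20.

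Scaling to equal totals moved the median of all miRNAs by -0.48 (log2), and by 0.44 without mir-10a, the latter turning the log2 FC of the mir-130b means from -0.44 to 0.00065. The other members stayed higher, and the median over the members was 0.57 to 1.45 in all 5 alternatives. Members apart between groups went from 2 to 4 in the deeper libraries, mir-130b by 615 against 617 normalized counts, within counting error. Of 48 alternative values of the ratios 3 turned, all without 1 C library: mir-130a/mir-130b, from 0.79, was -0.26 to 1.86; mir-130a/mir-301b, from -0.59, was -1.08 to 0.012; mir-301a/mir-301b, from 0.63, was -0.046 to 1.10. None of 32 values of the shares turned. No paired analysis was possible because single libraries could not be matched to numbered replicates; the replicate block and count tests were not run.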
